A study of Mus musculus with 24 samples.

Results

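The 9 genes described here are interferon-stimulated genes: Ifit1, Ifit3, Isg15, Irf7, Oasl2, Bst2, Ifitm2, Ifitm3 and Ifi27l2a. They were taken by symbol from a deposited expression table of 47643 gene symbols, and all 9 were present once. The table covers 24 RNA-seq libraries of neocortex, cerebellum and hippocampus from male C57BL/6J mice aged 4 months. In each region 4 libraries (replicates 1 to 4) came from mice injected with LLC cells (Lewis lung carcinoma, a transplantable mouse tumour line) and taken 3 weeks later, and 4 libraries (replicates 14 to 17) came from mock-injected controls. The series as a whole is titled for melanoma-induced cachexia, the wasting that accompanies a tumour, but these samples are labelled LLC. The values are TPM, a transcript abundance corrected for transcript length, so levels can be set side by side between genes. Regional markers followed the labels: the summed TPM of cerebellar markers was 3348 to 6577 in cerebellar libraries and 79.1 to 133 in the others, and that of hippocampal markers 585 to 681 in hippocampal libraries and 56.2 to 228 in the others. Neocortical markers summed to 440 to 506 TPM in neocortex, 440 to 488 in hippocampus and 40.8 to 125 in cerebellum, so they did not separate neocortex and hippocampus.

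Interferons are secreted proteins that cells release on sensing foreign nucleic acid. Type I interferon binds a receptor of the subunits Ifnar1 and Ifnar2, whose kinases activate transcription factors that bind, with Irf9, the interferon-stimulated response element (ISRE) in the promoters of target genes, while interferon gamma acts through the gamma-activated site (GAS). In the brain, endothelial cells, microglia and ependymal cells are known to respond to interferon. The 9 genes differ in role: Ifit1 and Ifit3 bind viral RNA or complexes that do so, Isg15 is a ubiquitin-like modifier, Irf7 amplifies interferon transcription, Oasl2 is an oligoadenylate synthetase-like protein, Bst2 (tetherin) holds budding virus at the cell surface, Ifitm2 and Ifitm3 block fusion of virus in endosomes, and Ifi27l2a is a small membrane protein.

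Of these 9 genes, Ifitm2 and Ifitm3 rose in LLC neocortex, in LLC cerebellum and in the average over the 3 regions, with mean differences of 0.38 to 0.67 on the log2 scale, and Bst2 fell in LLC neocortex. Ifit1, Ifit3, Isg15, Irf7, Oasl2 and Ifi27l2a passed the test in no region and not in the average over regions, except under single alternatives: Ifit3 was lower in LLC neocortex (adjusted p = 0.0216) and Isg15 higher in the average (0.0325) with library weights, Ifit3 was lower in the average (0.0283) with a replicate block, and Ifit1 was lower in the average (0.0451) without LLC replicate 4. The test was limma on log2(TPM + 1), over all genes with a mean of at least 1 TPM, and a gene passed at a Benjamini-Hochberg adjusted p under 0.05. In neocortex 2 of the 9 genes rose and 1 fell, where 5.59% of all tested genes rose and 2.95% fell. In cerebellum 2 rose and 0 fell, where 1.23% of all tested genes rose. In hippocampus 0 passed in limma, 2 had an unadjusted p under 0.05, as had 22.2% of all tested genes, and 2.58% of all tested genes rose. In the average over regions 2 rose, against 7.66% of all genes. The median log2 fold change of the 9 genes was -0.07 in neocortex, 0.10 in cerebellum and 0.00 in hippocampus, beside 0.01, -0.04 and 0.01 over all tested genes in the same order of regions.

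**Figure D1:**
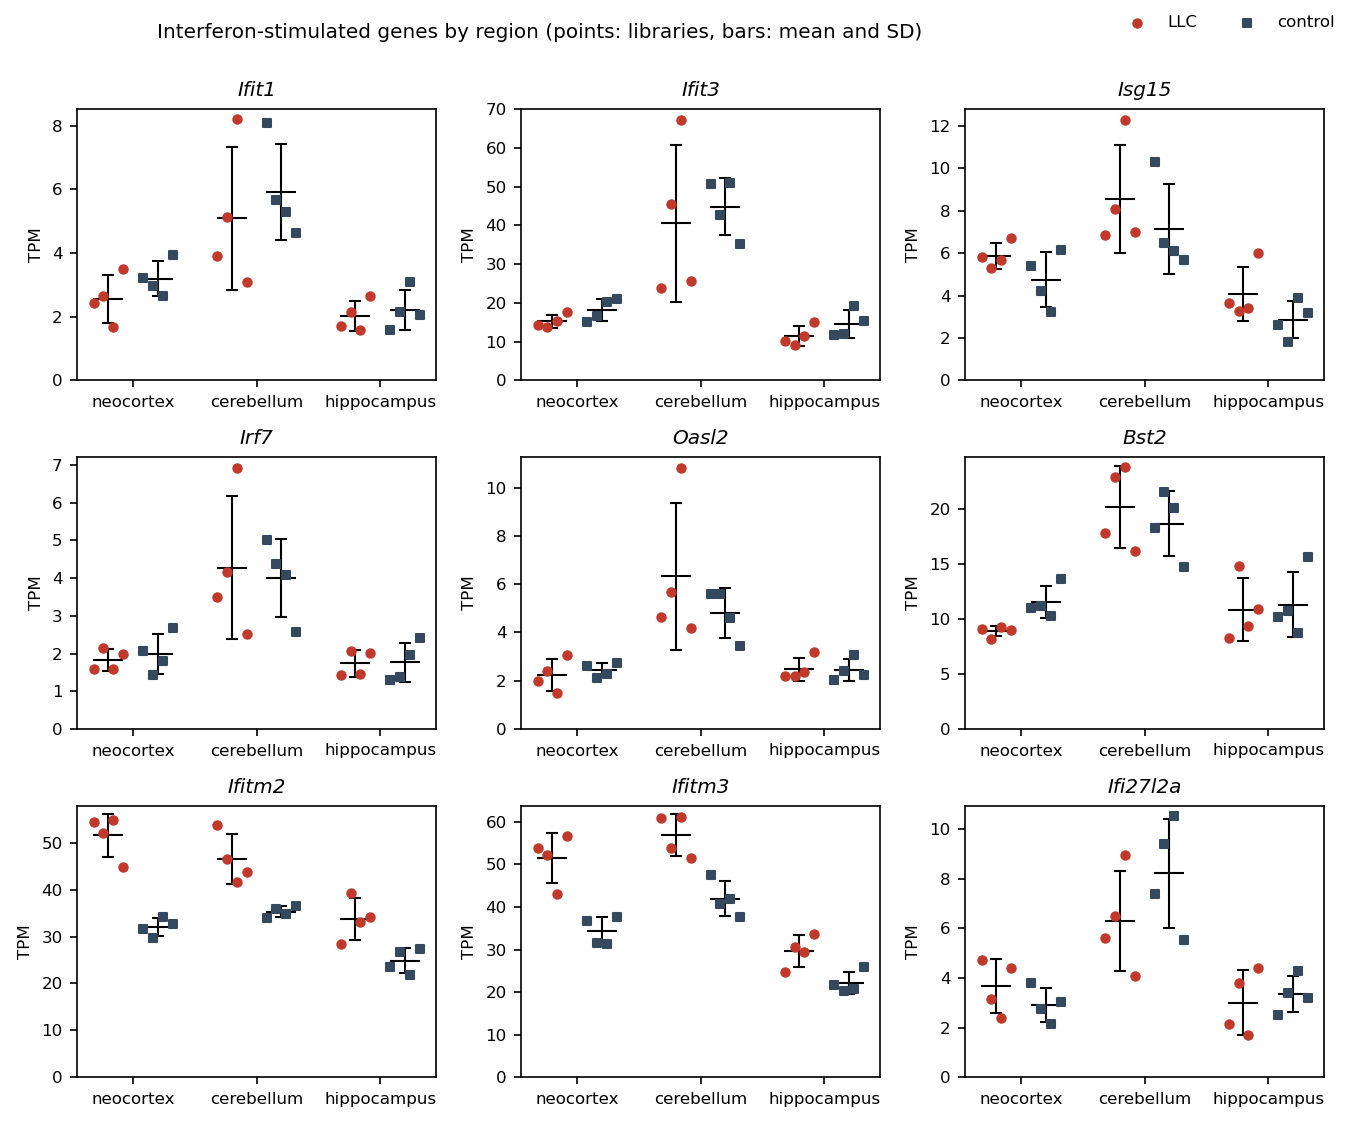
TPM of the 9 interferon-stimulated genes in each library, by region, with LLC libraries as red circles and control libraries as dark squares; bars give the mean and SD of 4 libraries. Ifitm2 separates LLC from control libraries in all 3 regions, while most other genes overlap and differ more between regions.

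The promoters of 8 of the 9 genes were found in RefSeq's table for GRCm38.p6, from 250 bases before to 50 bases after the start site, and 5 are shown for the genes the comparisons turn on. Ifitm2 and Ifitm3 rose, Bst2 fell in neocortex, and Isg15 and Ifit3 carry the same motif but did not pass. Capitals mark the ISRE core, searched as GAAA, any 2 bases and GAAA again, or on the other strand as TTTC, any 2 bases and TTTC.
Ifitm2 promoter, chr7:140955912-140956211, minus strand: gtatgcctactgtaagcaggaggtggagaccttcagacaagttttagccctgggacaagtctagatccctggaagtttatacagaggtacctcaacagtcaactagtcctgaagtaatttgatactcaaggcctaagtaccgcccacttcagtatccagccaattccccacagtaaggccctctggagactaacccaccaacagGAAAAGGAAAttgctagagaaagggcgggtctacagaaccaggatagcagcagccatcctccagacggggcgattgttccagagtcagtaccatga
Ifitm3 promoter, chr7:141010695-141010994, minus strand: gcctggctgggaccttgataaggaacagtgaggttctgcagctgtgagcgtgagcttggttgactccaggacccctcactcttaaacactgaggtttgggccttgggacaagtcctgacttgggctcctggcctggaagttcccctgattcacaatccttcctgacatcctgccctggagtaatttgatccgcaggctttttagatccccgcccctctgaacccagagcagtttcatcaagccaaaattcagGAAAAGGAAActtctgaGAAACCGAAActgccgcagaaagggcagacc
Bst2 promoter, chr8:71537423-71537722, minus strand: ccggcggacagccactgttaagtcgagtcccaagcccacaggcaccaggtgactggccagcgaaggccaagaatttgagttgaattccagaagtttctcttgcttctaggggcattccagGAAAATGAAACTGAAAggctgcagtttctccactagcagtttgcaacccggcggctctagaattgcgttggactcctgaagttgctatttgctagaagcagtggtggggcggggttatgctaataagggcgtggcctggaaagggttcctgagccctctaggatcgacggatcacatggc
Isg15 promoter, chr4:156200769-156201068, minus strand: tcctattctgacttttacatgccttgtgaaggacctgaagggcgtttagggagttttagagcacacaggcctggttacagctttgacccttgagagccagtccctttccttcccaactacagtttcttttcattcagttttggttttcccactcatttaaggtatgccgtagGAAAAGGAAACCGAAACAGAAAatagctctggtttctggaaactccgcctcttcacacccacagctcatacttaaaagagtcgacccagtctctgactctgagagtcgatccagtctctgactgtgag
Ifit3 promoter, chr19:34583279-34583578, plus strand: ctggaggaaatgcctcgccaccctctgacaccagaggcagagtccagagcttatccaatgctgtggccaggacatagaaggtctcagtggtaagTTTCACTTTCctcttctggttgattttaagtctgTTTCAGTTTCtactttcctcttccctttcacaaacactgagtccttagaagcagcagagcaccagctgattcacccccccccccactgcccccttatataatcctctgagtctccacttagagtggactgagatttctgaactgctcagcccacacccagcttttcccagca
An ISRE core was found in 6 of the 8 promoters, Ifit1 being the sixth, and in 3.44% of all 32851 promoters of that length. Isg15 held 3 overlapping matches, starting 78, 72 and 66 bases before the start site. Bst2 held 2 overlapping matches, starting at -130 and -124, and Ifit3 held 2 separate matches at -156 and -122. Ifitm2 held 1 match at -46, whereas both matches of Ifitm3, at 2 and 19, lie downstream of its start site. No match was found in the windows of Irf7 and Oasl2. The GAS letters TTCNNNGAA, which read the same on both strands, were found in Bst2 and Ifitm3 and in 8.3% of all promoters. These matches describe letters in a window, and the genes with them include genes that rose, fell and did not pass.

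Ifitm2 and Ifitm3 encode interferon-induced transmembrane proteins and lie on the minus strand of chromosome 7, at 140954837 to 140955987 and at 141009586 to 141010770 (GENCODE M21, mm10). In LLC neocortex Ifitm2 stood at 54.3, 52.1, 54.9 and 44.8 TPM in replicates 1 to 4, against 31.7, 29.7, 34.2 and 32.6 TPM in control replicates 14 to 17. Every LLC library lay above every control library. The mean was 51.5 ± 4.66 TPM in the LLC libraries, against 32 ± 1.88 TPM in the controls (SD, n = 4 each), a log2 fold change of 0.67 ± 0.07 (SE, adjusted p = 0.00166), at rank 14 by p of 14485 genes. The gene passed without any 1 of the 8 libraries, with adjusted p between 1.42e-05 and 0.0142.

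In cerebellum Ifitm2 had 53.8, 46.5, 41.6 and 43.7 TPM in the LLC libraries, against 33.9, 35.9, 34.7 and 36.6 TPM in the controls. The groups did not overlap, and the log2 fold change was 0.38 ± 0.08 (adjusted p = 0.0468). In LLC hippocampus it had 28.3, 39.2, 33 and 34.2 TPM, against 23.6, 26.7, 21.7 and 27.4 TPM in control hippocampus. Here too each LLC library lay above all controls, though LLC replicate 1 exceeded the highest control only narrowly, and the log2 fold change of 0.42 ± 0.10 did not pass (adjusted p = 0.0519). Over the mean of the 3 regions the log2 fold change was 0.49 ± 0.05 (adjusted p = 9.89e-04).

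Ifitm3, the family member best known for restricting influenza virus, had 53.9, 52.2, 43.1 and 56.7 TPM in LLC neocortex, against 36.6, 31.5, 31.4 and 37.6 TPM in control neocortex. All LLC libraries were above all controls, by a log2 fold change of 0.57 ± 0.09 (adjusted p = 0.00935). In LLC cerebellum it had 60.8, 53.8, 61.1 and 51.4 TPM, against 47.4, 40.8, 41.9 and 37.7 TPM in control cerebellum. The groups were again apart, with a log2 fold change of 0.43 ± 0.09 (adjusted p = 0.0399). In LLC hippocampus it had 24.7, 30.6, 29.4 and 33.7 TPM, against 21.8, 20.3, 20.7 and 26 TPM in control hippocampus. LLC replicate 1 fell within the range of the controls there, and the log2 fold change of 0.40 ± 0.10 did not pass (adjusted p = 0.0602). Averaged over regions the log2 fold change was 0.47 ± 0.05 (adjusted p = 0.00208).

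The cerebellar calls lay near the threshold and were lost without most single libraries. Ifitm2 passed there without LLC replicate 1 or LLC replicate 4 and missed the threshold without any other library, with adjusted p of 0.117 without LLC replicate 2, 0.0638 without LLC replicate 3, and 0.104, 0.155, 0.157 and 0.105 without control replicates 14, 15, 16 and 17. Ifitm3 likewise passed without LLC replicate 1 or LLC replicate 4 alone, and had adjusted p of 0.0885 and 0.091 without LLC replicates 2 and 3 and of 0.0653, 0.153, 0.139 and 0.105 without the 4 controls in the same order. The log2 fold changes stayed between 0.31 and 0.43 for Ifitm2 and between 0.38 and 0.49 for Ifitm3. LLC replicate 1 of cerebellum stands apart in composition: the summed TPM of cerebellar marker genes was 3348 in it, 5975 to 6311 in the other LLC libraries and 5806 to 6577 in controls. In hippocampus Ifitm2 passed only without LLC replicate 4 (adjusted p = 0.0472). When all 24 libraries shared 1 estimate of the spread, both Ifitm2 (adjusted p = 0.0108) and Ifitm3 (adjusted p = 0.0264) passed in hippocampus.

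Ifitm1, the neighbouring family member, was named after its values were seen. It had 7.19, 9.38, 5.48 and 13.2 TPM in LLC neocortex, against 3.98, 3.37, 4.79 and 5.61 TPM in control neocortex, where LLC replicate 3 lay below the highest control. It rose there with a log2 fold change of 0.81 ± 0.22 (adjusted p = 0.0473), a call that held only without LLC replicate 3 or LLC replicate 4. Leaving out the others gave adjusted p of 0.101 and 0.114 for LLC replicates 1 and 2, and of 0.0971, 0.127, 0.0972 and 0.0667 for control replicates 14 to 17. In hippocampus its log2 fold change was 0.83 ± 0.25 (adjusted p = 0.0887) and in cerebellum 0.31 ± 0.15 (adjusted p = 0.226). Ifitm2 and Ifitm3 are close in sequence, so reads could be split between them, and how shared reads were assigned is not given in the sources used here.

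**Figure D2:**
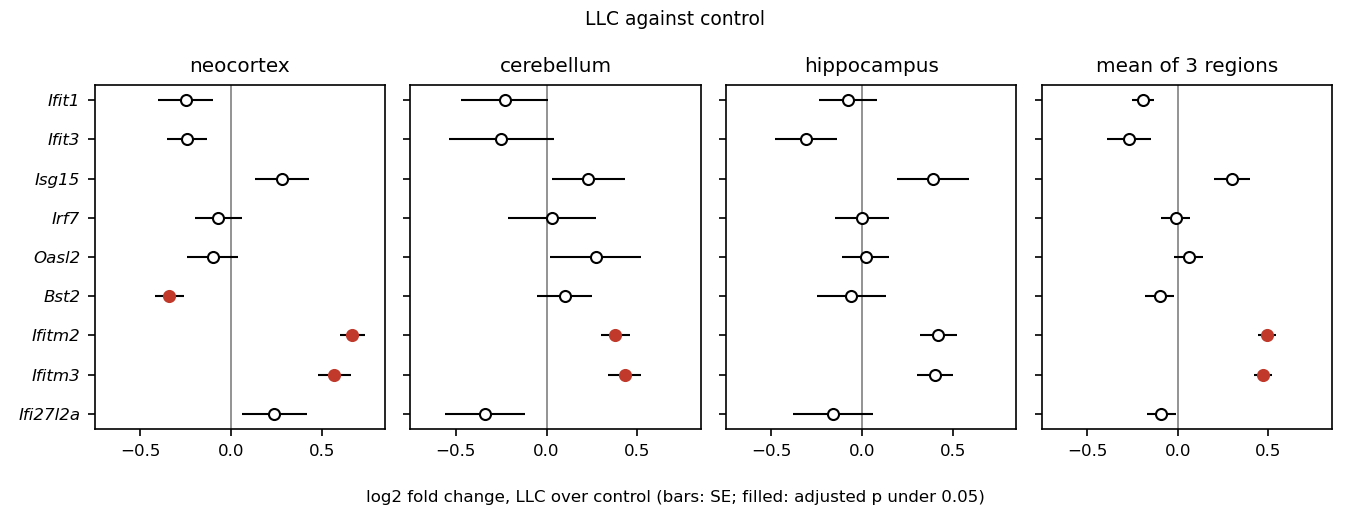
Log2 fold change (LLC over control, on the log2(TPM + 1) scale) of each gene in neocortex, cerebellum, hippocampus and the mean of the 3 regions, with SE as bars and filled points for adjusted p under 0.05. Ifitm2 and Ifitm3 lie at 0.38 to 0.67 in all panels, and the other 7 genes lie between -0.34 and 0.39.

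Markers of several cell types differed between LLC and control libraries, as Ifitm2 and Ifitm3 did. The order of the LLC libraries was shared for some lists and regions only. The summed TPM of 15 endothelial markers was 523 to 770 in LLC and 395 to 424 in control neocortex, 517 to 828 in LLC and 445 to 457 in control cerebellum, and 434 to 558 in LLC and 302 to 348 in control hippocampus. The ranges did not overlap in any region, and LLC replicate 4 was the lowest LLC library in each. Of the 15 endothelial markers, all tested, 13 rose in neocortex, 3 in cerebellum and 10 in hippocampus. Over all tested genes 5.59%, 1.23% and 2.58% rose in these regions. The sum of 12 neutrophil markers was 56.5 to 222 TPM in the LLC libraries against 9.62 to 15.3 TPM in control neocortex, 57.8 to 169 TPM in the LLC libraries against 7.22 to 21.1 TPM in control cerebellum, and 36 to 133 TPM in the LLC libraries against 7.3 to 17.4 TPM in control hippocampus. Here LLC replicate 4 was the highest LLC library in each region. It had the highest LLC value of Ifitm3 in neocortex (56.7 TPM) and hippocampus (33.7 TPM) but the lowest in cerebellum (51.4 TPM). For Ifitm2 it was the lowest LLC library in neocortex only (44.8 TPM). The LLC libraries had the same order in Ifitm3 as in the neutrophil sum and the monocyte and macrophage sum of hippocampus. The same held for Ifitm3 and the erythroid sum in cerebellum. In the other regions the order of these sums differed from that of Ifitm3. The sum of 8 mural markers was 179 to 212 TPM in the LLC libraries against 150 to 166 TPM in control neocortex, and 5, 1 and 2 of the 8 rose in neocortex, cerebellum and hippocampus. In cerebellum the mural sums overlapped, at 190 to 253 TPM in LLC and 174 to 203 TPM in control libraries. The sum of 10 monocyte and macrophage markers was 46.1 to 77.7 TPM in the LLC libraries against 31.6 to 32.9 TPM in control neocortex, and overlapped in cerebellum and hippocampus. Erythroid markers summed to 3565 to 15181 TPM in the LLC libraries against 1124 to 1507 TPM in control neocortex, without overlap in any region. Of the 12 microglial markers, 0 passed in limma in any region (6, 2 and 2 at an unadjusted p under 0.05 in neocortex, cerebellum and hippocampus, beside 29.8%, 24.4% and 22.2% of all genes). Other lists went down in neocortex, where 2.95% of all tested genes fell: 4 of 8 neuronal and 3 of 8 oligodendrocyte markers fell. Of 8 astrocyte markers 2 rose and 1 fell there. In hippocampus 2 neuronal markers fell and 1 rose, and 1 astrocyte marker rose. In cerebellum 1 astrocyte marker fell. In the average over regions 1 microglial marker, P2ry12, fell. In tissue RNA, fewer cells of a type and less RNA per cell cannot be told apart, and the part of any of these cell types in the Ifitm2 and Ifitm3 values was not tested.

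Bst2, the tetherin gene on the minus strand of chromosome 8 at 71534255 to 71537456, went the other way in neocortex. It had 9.04, 8.2, 9.3 and 8.99 TPM in LLC neocortex, against 11, 11.2, 10.3 and 13.6 TPM in control neocortex. All 4 LLC libraries lay below all 4 controls. The log2 fold change was -0.34 ± 0.08 (adjusted p = 0.0354). Of the 8 fits that leave out 1 library, only that without LLC replicate 4 kept Bst2. The adjusted p was 0.0966 without LLC replicate 1, and it missed the threshold without LLC replicate 2 (0.0993) or 3 (0.0614), and without control replicate 14 (0.0612), 15 (0.0899), 16 (0.0535) or 17 (0.0619), with log2 fold changes between -0.38 and -0.26. It was also lost with no filter on low values (adjusted p = 0.0712), with a replicate block (0.056) and with all 24 libraries in 1 fit (0.242).

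In cerebellum Bst2 had 17.8, 22.9, 23.8 and 16.2 TPM in the LLC libraries and 18.3, 21.5, 20.1 and 14.7 TPM in the controls, with overlapping groups (log2 fold change 0.10 ± 0.15, adjusted p = 0.694). In hippocampus the values were 8.29, 14.8, 9.38 and 10.9 TPM in the LLC libraries and 10.2, 10.7, 8.73 and 15.6 TPM in control libraries (log2 fold change -0.06 ± 0.19, adjusted p = 0.89). The highest library of each hippocampal group was also the one with the highest summed TPM of 8 choroid plexus markers, 8400 in LLC replicate 2, where the other LLC libraries had 141 to 308, and 4903 in control replicate 17, where the others had 202 to 3053. Control replicate 14 of hippocampus, with a sum of 3053, had Bst2 at 10.2 TPM. In LLC neocortex the same sum was 919, 1057, 2585 and 2782 in replicates 2, 4, 1 and 3, in the order of Bst2 (8.2, 8.99, 9.04 and 9.3 TPM). In control neocortex the orders differed, with sums of 521, 1527, 2268 and 2384 beside Bst2 at 11, 13.6, 10.3 and 11.2 TPM in replicates 14, 17, 16 and 15. Whether choroid plexus tissue contributed to the Bst2 values of either region was not tested.

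Ifit1 and Ifit3, on the plus strand of chromosome 19 at 34640871 to 34650009 and 34583531 to 34588731, belong to the family of interferon-induced proteins with tetratricopeptide repeats. In LLC neocortex Ifit3 had 14.2, 13.7, 15.3 and 17.6 TPM, against 15.1, 16.6, 20.1 and 21.1 TPM in control neocortex. The LLC libraries lay mostly lower but the groups overlapped (log2 fold change -0.24 ± 0.11, adjusted p = 0.168). In cerebellum Ifit3 had 23.9, 45.4, 67.2 and 25.7 TPM in the LLC libraries, against 50.6, 42.6, 50.8 and 35.3 TPM in the controls. One LLC library was above all controls and 2 were below all controls, so that the SD was 20.3 TPM in the LLC libraries and 7.44 TPM in control cerebellum (log2 fold change -0.25 ± 0.29, adjusted p = 0.621). In hippocampus it had 10.1, 9.12, 11.4 and 15.1 TPM in the LLC libraries and 11.6, 11.9, 19.2 and 15.4 TPM in control libraries, with 3 LLC libraries below all controls (log2 fold change -0.31 ± 0.17, adjusted p = 0.324).

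Ifit1 averaged 2.57 ± 0.757 TPM in the LLC libraries and 3.2 ± 0.552 TPM in control neocortex (log2 fold change -0.25 ± 0.15, adjusted p = 0.294). In cerebellum it averaged 5.09 ± 2.24 TPM in the LLC libraries and 5.92 ± 1.5 TPM in control libraries, and in hippocampus 2.02 ± 0.481 TPM in the LLC libraries and 2.21 ± 0.636 TPM in control libraries. The groups overlapped in all 3 regions. Averaged over regions, its log2 fold change of -0.19 ± 0.06 missed the threshold (adjusted p = 0.0709) and passed only without LLC replicate 4 (adjusted p = 0.0451). Ifit3b, a near-identical neighbour of Ifit3, had 11.8, 17.9, 30 and 14 TPM in LLC cerebellum, against 19.9, 19.7, 22.1 and 16.5 TPM in control cerebellum, the same order of LLC libraries as Ifit3. Reads shared by the 2 copies make both values uncertain.

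Isg15, on the minus strand of chromosome 4 at 156199424 to 156200818, encodes the modifier that is attached to other proteins in an interferon response. It had 5.8, 5.29, 5.69 and 6.73 TPM in LLC neocortex, against 5.41, 4.2, 3.25 and 6.17 TPM in control neocortex. In cerebellum it had 6.88, 8.08, 12.3 and 6.99 TPM in LLC libraries, against 10.3, 6.5, 6.1 and 5.68 TPM in controls. In hippocampus it had 3.63, 3.28, 3.41 and 5.99 TPM in LLC libraries, against 2.62, 1.79, 3.88 and 3.18 TPM in controls. Its LLC mean was the higher one in each region, yet in each only 1 LLC library exceeded all controls. The log2 fold changes were 0.28 ± 0.15, 0.23 ± 0.20 and 0.39 ± 0.20 in neocortex, cerebellum and hippocampus (adjusted p = 0.225, 0.507 and 0.278), and the average over regions was 0.30 ± 0.10 (adjusted p = 0.0717).

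Irf7, the transcription factor that amplifies type I interferon production (chromosome 7, 141262706 to 141266481, minus strand), was among the least abundant of the 9 genes. It averaged 1.83 ± 0.291 TPM in the LLC libraries and 2 ± 0.529 TPM in control neocortex, 4.27 ± 1.89 TPM in the LLC libraries and 4.01 ± 1.04 TPM in control cerebellum, and 1.74 ± 0.352 TPM in the LLC libraries and 1.76 ± 0.523 TPM in control hippocampus. Its log2 fold changes of -0.07 ± 0.13, 0.03 ± 0.24 and 0.00 ± 0.15 were all smaller than their SE. Oasl2 (chromosome 5, 114896936 to 114912234, plus strand) averaged 2.24 ± 0.658 TPM in the LLC libraries and 2.44 ± 0.286 TPM in control neocortex, 6.32 ± 3.06 TPM in the LLC libraries and 4.81 ± 1.03 TPM in control cerebellum, and 2.48 ± 0.477 TPM in the LLC libraries and 2.43 ± 0.446 TPM in control hippocampus. Its largest log2 fold change, 0.27 ± 0.25 in cerebellum (adjusted p = 0.518), came with 1 LLC library at 10.8 TPM and 3 at 4.17 to 5.68 TPM.

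Ifi27l2a (chromosome 12, 103442167 to 103443680, minus strand) had 4.74, 3.17, 2.39 and 4.42 TPM in LLC neocortex, against 3.79, 2.74, 2.15 and 3.04 TPM in control neocortex. In LLC cerebellum it had 5.62, 6.51, 8.93 and 4.09 TPM, against 7.39, 9.4, 10.5 and 5.53 TPM in control cerebellum. In LLC hippocampus it had 2.13, 3.78, 1.7 and 4.41 TPM, against 2.51, 3.38, 4.28 and 3.21 TPM in control hippocampus. The groups overlapped in each region, and the mean was higher in LLC neocortex but lower in LLC cerebellum and hippocampus. The log2 fold changes were 0.24 ± 0.18, -0.34 ± 0.22 and -0.16 ± 0.22 (adjusted p = 0.391, 0.364 and 0.721).

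The LLC effect was then compared between regions in 1 fit of all 24 libraries. Of the 9 genes, 0 passed in limma for cerebellum minus neocortex (1 at an unadjusted p under 0.05), 0 for hippocampus minus neocortex and 0 for hippocampus minus cerebellum (0 at an unadjusted p under 0.05 in both). Over all tested genes 0.646%, 0% and 0.0936% passed in these 3 contrasts. Ifitm2 had the lowest p, with an effect 0.28 ± 0.13 smaller in cerebellum than in neocortex on the log2 scale (difference -0.28, adjusted p = 0.349). Bst2 differed by 0.44 ± 0.23 (adjusted p = 0.433) and Ifi27l2a by -0.58 ± 0.33 (adjusted p = 0.475) between the same regions. The effects on Ifitm2 and Ifitm3 in hippocampus and cerebellum differed by 0.04 ± 0.13 and -0.03 ± 0.14. These tests do not show that the regions respond alike.

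Single libraries differed in these genes more than the groups did. Each library was expressed as its log2 difference from the mean of the 4 controls of its region, and the mean was taken over the 7 genes other than Ifitm2 and Ifitm3. In LLC cerebellum this mean was -0.28, 0.06, 0.57 and -0.45 in replicates 1 to 4, against 0.21, 0.08, 0.06 and -0.35 in control replicates 14 to 17. In LLC replicate 3 of cerebellum all 7 genes were above the control mean, with Ifit3 at 67.2, Isg15 at 12.3, Oasl2 at 10.8 and Irf7 at 6.93 TPM. In LLC replicate 4, 1 of the 7 was. The other libraries labelled LLC 3 did not share this, at -0.25 in neocortex and -0.21 in hippocampus. In LLC neocortex the mean ran from -0.25 to 0.13, against -0.15 to 0.22 in control neocortex, and in LLC hippocampus from -0.21 to 0.27, against -0.21 to 0.21 in control hippocampus. Over Ifitm2 and Ifitm3 alone, all 12 LLC libraries were positive, at 0.17 to 0.69, against -0.13 to 0.18 in the 12 control libraries. Ifitm2 and Ifitm3 are the genes that rose in these same libraries, so this describes that rise and is no separate support for it.

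**Figure D3:**
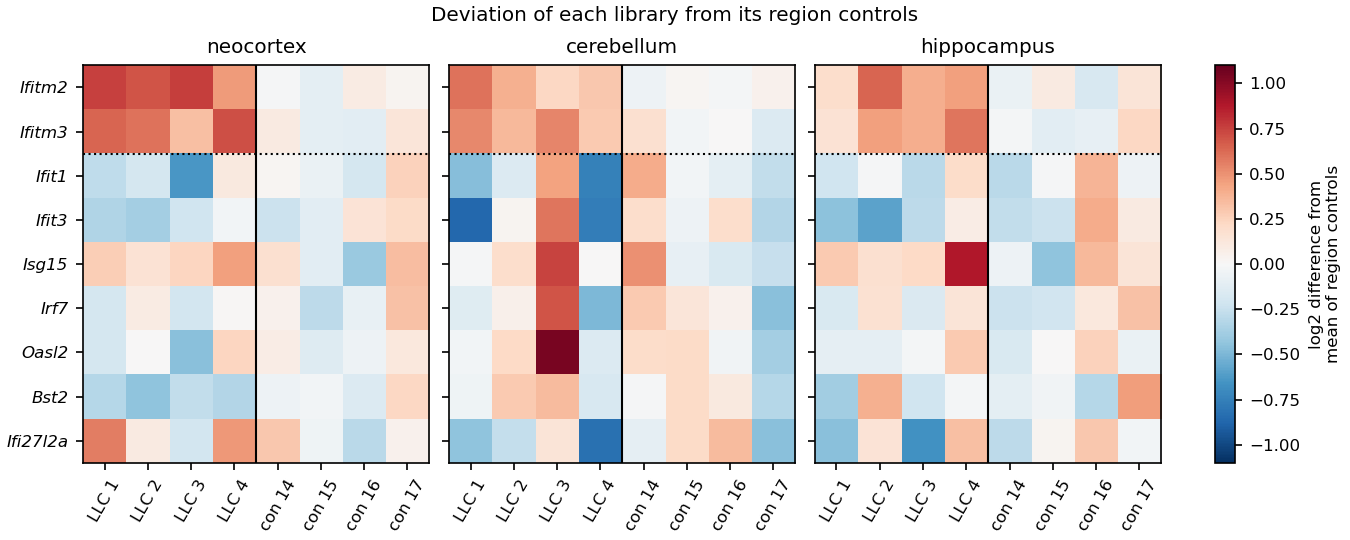
Log2 difference of each library from the mean of its region's controls, for Ifitm2 and Ifitm3 (above the dotted line) and the other 7 genes, with LLC libraries left and control libraries (con) right of the solid line. Ifitm2 and Ifitm3 are positive in all LLC libraries, while the other genes vary by library, most of all in cerebellum, where LLC 3 is high and LLC 4 low.

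The 7 genes varied together, Bst2 less closely than the others. With group means removed, Pearson's r over the 24 libraries had a median of 0.69 (0.26 to 0.91) over the 21 pairs among these 7 genes. Bst2 had r of 0.26, 0.31, 0.35 and 0.35 with Isg15, Oasl2, Ifit1 and Ifit3, and of 0.51 and 0.66 with Ifi27l2a and Irf7. For the 14 pairs of Ifitm2 or Ifitm3 with 1 of the 7 the median was 0.35 (-0.41 to 0.66), and for Ifitm2 with Ifitm3 it was 0.18. The 2 genes differed in this: Ifitm3 was positive with each of the 7, from 0.29 with Ifit3 to 0.66 with Irf7. Ifitm2 was negative with each but Bst2 (0.40), down to -0.41 with Oasl2. Within regions, the median over the 21 pairs was 0.44 (-0.20 to 0.94) in neocortex, 0.84 (0.46 to 0.96) in cerebellum and 0.60 (-0.25 to 0.89) in hippocampus, each over 8 libraries. These correlations are descriptions: the genes of a pair share the library and its scaling to a fixed total, and the 3 regions may share animals.

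Other genes were ranked by the correlation of their difference from the region's controls with that of these genes over 24 libraries, among 13171 genes. Closest to the mean of the 9 genes were Ddx58 (0.79), the cytosolic RNA sensor RIG-I, the immunity-related GTPase Irgm1 (0.76), the tripartite motif genes Trim30d (0.75), Trim34a (0.74) and Trim30a (0.67), Usp18 (0.69), which removes ISG15 from proteins, Fndc3b (0.68) and Ifit3b (0.67). Among the genes closest to Ifit3 were Ifit3b (0.94) and Irgm1 (0.75), and among those closest to Ifit1 were Trim34a (0.80) and Tmem47 (0.76). Oasl2 was closest to Trim30d (0.81), Trim34a (0.74) and Lrif1 (0.73), and Irf7 to Trim30d (0.76), Irgm1 (0.75) and Trim34a (0.73). Isg15 was closest to Ddx58 (0.69), Pik3cg (0.69) and Cd33 (0.67).

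Ifitm2 had other neighbours: Nos3 (0.95), the endothelial nitric oxide synthase, Smad6 (0.94), an inhibitor of BMP signalling, and the transglutaminase Tgm2 (0.93). Those of Ifitm3 were Chil3 (0.88), a secreted protein of myeloid cells, the riboflavin transporter Slc52a3 (0.88) and Alox5ap (0.87), which serves leukotriene synthesis. With group means removed, so that the difference between LLC and control libraries no longer counts, r was 0.78, 0.73 and 0.66 for the 3 neighbours of Ifitm2 and 0.28, 0.38 and 0.65 for those of Ifitm3. Bst2 was closest to the secreted phospholipase Pla2g5 (0.73), the cell cycle inhibitor Cdkn1c (0.71) and Prmt7 (0.70), an arginine methyltransferase. Ifi27l2a was closest to Rnf213 (0.79), the macrophage mannose receptor Mrc1 (0.75) and Dock11 (0.70).

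Levels also differed between regions without a tumour. In control neocortex, in order, Ifitm3 averaged 34.3 ± 3.28 TPM, Ifitm2 32 ± 1.88, Ifit3 18.2 ± 2.85, Bst2 11.5 ± 1.47, Isg15 4.76 ± 1.29, Ifit1 3.2 ± 0.552, Ifi27l2a 2.93 ± 0.681, Oasl2 2.44 ± 0.286 and Irf7 2 ± 0.529 TPM (SD, n = 4). Ifitm3 and Ifitm2 overlapped in range there, as did neighbours among the 5 lowest genes. In control cerebellum Ifit3 came first at 44.8 ± 7.44 TPM, overlapping Ifitm3 at 41.9 ± 4.05 TPM, followed by Ifitm2 at 35.3 ± 1.22 TPM and Bst2 at 18.7 ± 2.94 TPM. Ifi27l2a (8.2 ± 2.19 TPM), Isg15 (7.14 ± 2.12 TPM), Ifit1 (5.92 ± 1.5 TPM), Oasl2 (4.81 ± 1.03 TPM) and Irf7 (4.01 ± 1.04 TPM) came next, each overlapping its neighbour. In control hippocampus Ifitm2 came first at 24.8 ± 2.65 TPM, overlapping Ifitm3 at 22.2 ± 2.61 TPM, then Ifit3 at 14.5 ± 3.55 TPM and Bst2 at 11.3 ± 3 TPM, which overlapped. Ifi27l2a (3.34 ± 0.726 TPM), Isg15, Oasl2, Ifit1 and Irf7 (1.76 ± 0.523 TPM) were lowest there.

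All 9 genes were higher in control cerebellum than in control neocortex on the deposited scale, Ifitm2 and Ifitm3 not so after rescaling by median ratios, and 61% of all tested genes were higher. The excess was largest for Ifit3 (log2 fold change 1.25 ± 0.13, adjusted p = 2.94e-06) and Ifi27l2a (1.21 ± 0.17, adjusted p = 5.30e-05), and the median of the 9 genes was 0.71 beside 0.31 over all genes. With the libraries rescaled by the median ratio over genes, which moved the median of all genes by -0.29, the direction of Ifitm2 turned (log2 fold change -0.17 in place of 0.14, adjusted p = 0.00617) and Ifitm3 went to -0.03 in place of 0.28. Under that rescaling Isg15 kept its direction but no longer passed (0.23, adjusted p = 0.278), while the other 6 genes kept both. Without control replicate 15 Isg15 (adjusted p = 0.0875) and Ifitm2 (0.12) were lost, as were Isg15 without control replicate 16 (0.0794) and Ifitm2 without control replicate 17 (0.0691).

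Control hippocampus was lower than control cerebellum for all 9 genes, where 55.3% of all tested genes were lower. The differences ran from -0.49 for Ifitm2 to -1.57 ± 0.16 for Ifit3 (adjusted p = 3.04e-06), and each of the 9 calls held without any 1 of the 4 control numbers. Against control neocortex, 4 of the 9 genes were lower in control hippocampus, where 21.3% of all tested genes were lower. These were Ifitm3 (-0.61 ± 0.08, adjusted p = 1.07e-04), Isg15 (-0.58 ± 0.19, adjusted p = 0.0222), Ifit1 (-0.40 ± 0.14, adjusted p = 0.0309) and Ifitm2 (-0.36 ± 0.07, adjusted p = 0.00145). Isg15 and Ifit1 passed only with control replicate 16 left out or with all libraries, with adjusted p without control replicates 14, 15 and 17 of 0.103, 0.0748 and 0.0703 for Isg15 and of 0.13, 0.0843 and 0.152 for Ifit1. Ifit3 passed as well without control replicate 16 (adjusted p = 0.033), with the title number as replicate block (0.00476), with median-ratio scaling (0.0308) and with library weights (0.0263), and without control replicate 14 Ifi27l2a was higher in hippocampus (adjusted p = 0.0422).

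Upstream of these genes little passed in single regions. All 12 interferon ligand genes were under the filter in each region, and the highest value in any library was 0.236 TPM, for Ifng. Ifna1, Ifna4, Ifna5, Ifnl2 and Ifnl3 were listed at 0 in all libraries. Of the 6 receptor genes 5 were tested, and only Ifngr1, a subunit of the interferon gamma receptor, passed, in neocortex: it had 18.1, 19, 17.8 and 18.1 TPM in the LLC libraries and 15.2, 16.7, 15.8 and 16.1 TPM in control neocortex (log2 fold change 0.19 ± 0.05, adjusted p = 0.0366). The groups did not overlap, but that call held only without LLC replicate 4, adjusted p being 0.0592 to 0.107 without any other library. Of the 6 signal transducers and 5 tested interferon regulatory factors other than Irf7, 0 passed in limma in any region (0, 2 and 0 transducers and 1, 0 and 0 factors at an unadjusted p under 0.05 in neocortex, cerebellum and hippocampus). Of the nucleic acid sensors and their adaptors, 1 of 12 rose in neocortex, Tlr7, the endosomal sensor of single-stranded RNA (log2 fold change 0.40 ± 0.09, adjusted p = 0.0253), with 0 of 11 in cerebellum and 0 of 12 in hippocampus (4 and 3 at an unadjusted p under 0.05). Over all tested genes 5.59%, 1.23% and 2.58% rose in neocortex, cerebellum and hippocampus. At an unadjusted p under 0.05 in limma were 29.8%, 24.4% and 22.2% of all tested genes in the same order of regions. Tlr7 held without 3 of the 8 neocortical libraries and had adjusted p of 0.0603 to 0.0883 without LLC replicates 1 or 2 or control replicates 14, 15 or 16. In hippocampus (0.42 ± 0.11, adjusted p = 0.0623) it passed without LLC replicate 4 (0.0139), with library weights (0.0364) and with all 24 libraries in 1 fit (0.0323).

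Among other antiviral effectors, 5 of 23 tested genes rose in neocortex, 1 of 26 in cerebellum and 2 of 23 in hippocampus, and 0 fell, where 5.59%, 1.23% and 2.58% of all tested genes rose. The median log2 fold change of these effectors was 0.10 in neocortex, 0.00 in cerebellum and 0.07 in hippocampus. Isg20, an exonuclease, had 6.17, 5.09, 5.05 and 2.13 TPM in LLC neocortex, against 1.08, 0.922, 0.928 and 0.927 TPM in control neocortex. It rose in all 3 regions, with log2 fold changes of 1.45 ± 0.21, 1.66 ± 0.24 and 1.21 ± 0.19 in neocortex, cerebellum and hippocampus (adjusted p = 0.00768, 0.0203 and 0.0179). Leaving out 1 library left these at 1.31 to 1.71, 1.46 to 1.87 and 1.05 to 1.38. The call was lost in cerebellum without LLC replicates 2 or 3 or control replicates 15, 16 or 17 (adjusted p = 0.058 to 0.0851), and in hippocampus without LLC replicate 2 or control replicates 14, 15 or 16 (0.0527 to 0.0567).

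Slfn2 and Slfn5 belong to the Schlafen family, known in mouse for control of lymphocyte growth and of viral replication. Slfn2 rose in neocortex (0.55 ± 0.13, adjusted p = 0.0306) and hippocampus (0.78 ± 0.12, adjusted p = 0.017), where it had 2.83, 4.12, 3.19 and 3.51 TPM in the LLC libraries and 1.23, 1.84, 1.63 and 1.57 TPM in control libraries without overlap. The hippocampal call was lost only without control replicate 14 (adjusted p = 0.0536), the neocortical one without LLC replicates 2 or 3 or control replicates 14, 15 or 16 (0.064 to 0.0919). Slfn5 rose in neocortex (0.46 ± 0.09, adjusted p = 0.0185), with 6.18, 7.74, 5.83 and 5.88 TPM in the LLC libraries and 4.27, 4.32, 4.02 and 4.79 TPM in control libraries, and its cerebellar log2 fold change was -0.17 ± 0.09 (adjusted p = 0.266). The difference between these 2 effects passed (-0.63 ± 0.14, adjusted p = 0.036), but only with all libraries or without LLC replicate 3 or LLC replicate 4 (0.0566 to 0.232 without any other number). In neocortex Slfn5 missed the threshold without LLC replicate 1 (adjusted p = 0.06) or control replicates 15 (0.0594) or 16 (0.059). Rsad2, the antiviral enzyme viperin, rose in neocortex (0.51 ± 0.13, adjusted p = 0.0452), a call kept only without LLC replicate 4, with adjusted p of 0.062 to 0.113 without any other library.

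In the ISG15 pathway only 1 gene of 10 listed rose in any region. Over all tested genes 5.59%, 1.23% and 2.58% rose in neocortex, cerebellum and hippocampus. The gene was Ube2l6, the enzyme that passes ISG15 to its ligases, and it rose in all 3. It had 22.2, 20.6, 23.1 and 11.4 TPM in the LLC libraries and 8.37, 8.69, 6.68 and 7.55 TPM in control neocortex, 25.4, 21.5, 25.8 and 9.83 TPM in the LLC libraries and 6.93, 7.07, 6.85 and 6.91 TPM in control cerebellum, and 13.8, 13.4, 17.2 and 7.86 TPM in the LLC libraries and 6.2, 5.13, 5.51 and 7.01 TPM in control hippocampus. The groups did not overlap in any region. The log2 fold changes were 1.16 ± 0.19, 1.36 ± 0.25 and 0.97 ± 0.19 (adjusted p = 0.0105, 0.0317 and 0.0305). In each region LLC replicate 4 had the lowest Ube2l6 and Isg20 of the LLC libraries. It also had the lowest summed TPM of erythroid markers, 3565, 4250 and 2622 in neocortex, cerebellum and hippocampus, where the other LLC libraries had 7106 to 15582 and the controls 729 to 1624. The summed TPM of endothelial markers was likewise lowest among the LLC libraries in LLC replicate 4, at 523, 517 and 434 in the same order. The part of blood RNA, of endothelial RNA or of another source in the values of Ube2l6 and Isg20 was not tested. Ube2l6 was kept in neocortex without any 1 library. In cerebellum it was kept only without LLC replicate 1 or LLC replicate 4 (adjusted p = 0.0767 to 0.113 without the others), and in hippocampus only without LLC replicate 4 (0.0603 to 0.0926). Herc6, the mouse ligase for ISG15, fell in neocortex (-0.28 ± 0.07, adjusted p = 0.0425), a call kept only without LLC replicate 4 (0.0636 to 0.127 without the others). Its log2 fold change was -0.36 ± 0.10 in cerebellum (adjusted p = 0.0738) and -0.25 ± 0.12 in hippocampus (0.266). In cerebellum Herc6 passed with library weights (0.00432) and with all 24 libraries in 1 fit (0.0105). Averaged over regions Herc6 fell (-0.29 ± 0.06, adjusted p = 0.0149), a call lost without control replicates 15 (0.0613) or 16 (0.0548).

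Of the genes that restrain interferon signalling or the nucleic acids that start it, 3 of 10 rose in neocortex, 3 of 10 in cerebellum and 1 of 9 in hippocampus, Isg20 being counted here as well. Over all tested genes 5.59%, 1.23% and 2.58% rose in these regions. The median log2 fold change of this list was 0.02, 0.06 and 0.00 in the same order. Socs3, an inhibitor of cytokine receptor kinases, rose in neocortex (0.48 ± 0.09, adjusted p = 0.0198) and cerebellum (0.63 ± 0.12, adjusted p = 0.0383). Trex1, a nuclease that clears cytosolic DNA, rose in neocortex (0.60 ± 0.14, adjusted p = 0.0365) and cerebellum (0.53 ± 0.11, adjusted p = 0.0469). All 4 calls were lost without some libraries. In neocortex Socs3 was lost without LLC replicate 1 or control replicates 15 or 16 (adjusted p = 0.0503 to 0.0627) and Trex1 without LLC replicates 1, 2 or 3 or control replicates 15, 16 or 17 (0.0886 to 0.112). In cerebellum Socs3 (0.057 to 0.139) and Trex1 (0.0619 to 0.159) were lost without LLC replicates 2 or 3 or any control.

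Of the interferon gamma-induced GTPases and antigen-processing targets, 0 of 15 rose and 1 of 15 fell in neocortex, with 0 of 16 called in cerebellum and 0 of 15 in hippocampus (9 and 2 at an unadjusted p under 0.05 in limma). Over all tested genes 5.59% rose and 2.95% fell in neocortex, and 24.4% and 22.2% had an unadjusted p under 0.05 in cerebellum and hippocampus. The median log2 fold change of this list was -0.19 in neocortex, -0.35 in cerebellum and -0.10 in hippocampus, beside 0.01, -0.04 and 0.01 over all genes. Control replicate 17 stood apart in the summed TPM of this list, at 78.8 in neocortex, 92.6 in cerebellum and 65.7 in hippocampus, where the other controls had 46.5 to 50.6, 61.2 to 70.8 and 36.9 to 39.2. The LLC libraries had 41.2 to 50.6 in neocortex, 50.4 to 56.9 in cerebellum and 34 to 47 in hippocampus, so the groups did not overlap in cerebellum, with or without that library, and overlapped in neocortex and hippocampus. Gbp3, a guanylate-binding protein, had 2.98, 2.7, 2.59 and 3.78 TPM in the LLC libraries and 4.02, 4.53, 4.45 and 6.07 TPM in control neocortex. Its groups were apart and its log2 fold change was -0.52 ± 0.12 (adjusted p = 0.0342), a call kept only without LLC replicate 4 or control replicate 14 (0.0698 to 0.0969 without the others). The log2 fold changes in cerebellum (-0.53 ± 0.13, adjusted p = 0.0563) and hippocampus (-0.52 ± 0.16, adjusted p = 0.1) did not pass. They passed in cerebellum without LLC replicate 1 (0.045) or 3 (0.0387), with library weights (0.00123) or with 1 fit of 24 libraries (0.0145), and in hippocampus without LLC replicate 4 (0.023), with weights (0.0404), with 1 fit (0.0451) or with a replicate block (0.0482). Averaged over regions Gbp3 fell (-0.52 ± 0.10, adjusted p = 0.0146), a call lost only without control replicate 15 (0.0531). Most named genes that rose in a region also passed in that average, where 7.66% of all tested genes rose. The log2 fold changes were 1.44 for Isg20 (adjusted p = 0.00396), 0.55 for Socs3 (0.0049), 1.17 for Ube2l6 (0.00944), 0.48 for Slfn2 (0.0101) and 0.65 for Ifitm1 (0.0339). Those of Trex1, Ifngr1, Tlr7 and Rsad2 were 0.45, 0.17, 0.33 and 0.38 (0.0341, 0.0343, 0.0362 and 0.0485). Slfn5 did not pass there (0.0846), while Aim2 and Lgals3bp did.

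**Figure D4:**
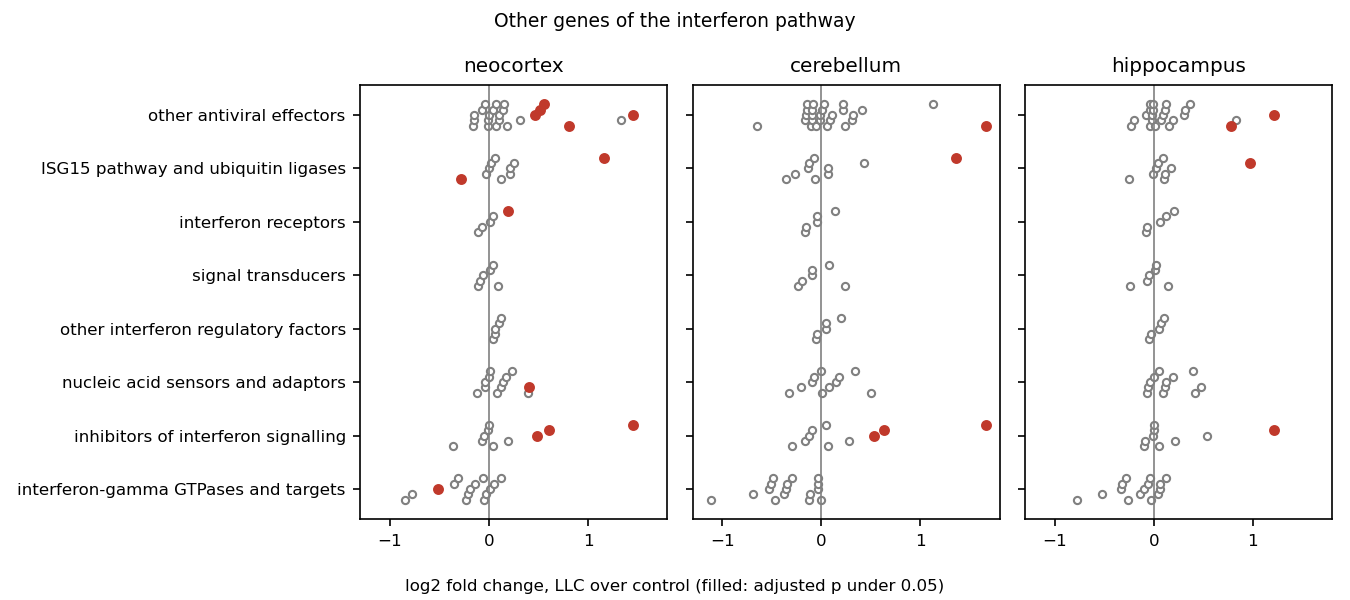
Log2 fold change (LLC over control, on the log2(TPM + 1) scale) of each tested gene of 8 lists of the interferon pathway in neocortex, cerebellum and hippocampus, with filled points for adjusted p under 0.05. Filled points are few: Isg20 (in 2 lists) and Ube2l6 stand to the right in all 3 regions, and the interferon gamma list lies mostly left of 0.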

How the data were processed

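RNA of 24 tissue samples was made into stranded TruSeq libraries for messenger RNA and sequenced on the NovaSeq platform, per the labels' protocols. What the authors deposited is a table of TPM values that sum to 1000000 in each library, so read depth is unknown, and 14368 to 14847 genes per library reached 1 TPM. The submitters' processing notes name mm10, and the aligner is not given in the sources used here. Because they are shares of a library, values of all genes fall where 1 gene takes more.

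The 9 genes and all lists were chosen with earlier results of these data known. Tests used limma 3.58.1 (lmFit, eBayes with trend) in R 4.3.3 on log2(TPM + 1), a scale that understates fold changes of low genes, over all genes with mean TPM of at least 1, two-sided, adjusted by Benjamini-Hochberg over all of them at 0.05, without a block, in 10 comparisons. The average over regions used the mean of the 3 libraries of 1 title number. Of each pathway list, genes passing in any region were named, at most 4 by lowest p. Alternatives were a pseudocount of 0.1, no filter, median-ratio scaling, library weights, 1 fit of all 24 libraries, replicate blocks and leaving out each number. The test was also run on simulated data, in which low genes were never changed and noise was independent between genes. It therefore cannot speak for the lowest of the 9 genes. The labels speak of biological replicates without saying whether libraries of 1 number share an animal, so p-values measure the spread between these samples. No 2 of the 24 libraries were identical. Coordinates are from GENCODE M21, and promoters from RefSeq. The likeness values of 1 gene are not reported here.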

Additional observations from a re-analysis of the deposited data

Results flagged for a closer look

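Isg15 in LLC hippocampus was flagged because replicate 4, at 5.99 TPM, stood far from the other 3 libraries of its group, at 3.28, 3.41 and 3.63 TPM: the gap was 0.872 of the range of the group, above Dixon's 95% limit for 4 samples. It was the only flag among 54 groups tested, and chance flags about 1 in 20 groups. In the same library the mean log2 difference of the 7 genes other than Ifitm2 and Ifitm3 from the hippocampal controls was 0.27, and 6 of the 7 were above the control mean.

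The LLC effect on Slfn5 differed between cerebellum and neocortex by -0.63 on the log2 scale (limma, adjusted p = 0.036). Its 4 cerebellar LLC libraries had 5.82, 6.48, 6.6 and 5.39 TPM, against 6.78, 7.41, 6.48 and 7.07 TPM in control cerebellum.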

How the results depend on the processing

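Of 1648 recomputed log2 fold changes of named genes, 1388 kept direction and side of the threshold, 154 no longer passed, 36 newly passed and 70 changed sign, 68 of them past the threshold in neither fit. Ifitm2 and Ifitm3 in neocortex and in the average over regions passed under every alternative run. TPM keep no read counts, so the precision of the lowest genes, such as Irf7, cannot be given from depth. The causes of the changes below were not tested.

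With no filter on low values the genes passing numbered 577 in neocortex (1237 with the filter), 71 in cerebellum (366), 220 in hippocampus (529), 1088 in the average (1950), 51 for cerebellum minus neocortex (89), 2 for hippocampus minus neocortex (0) and 22 for hippocampus minus cerebellum (13), and 0 of the 9 genes passed in cerebellum, more genes being adjusted for. With library weights they numbered 4337, 5769, 1180 and 5308 in the first 4, and 2052 and 595 for cerebellum minus neocortex and hippocampus minus cerebellum. Of the 9 genes, weights added Ifit3 in neocortex and between control hippocampus and neocortex, Ifitm2 in hippocampus, Isg15 in the average, and 2, Ifitm2 and Ifi27l2a, for cerebellum minus neocortex. With all 24 libraries in 1 fit 784 genes passed in neocortex and 3012 in cerebellum, and 2 of the 9 in hippocampus. Median-ratio scaling gave 625 genes in cerebellum and 1 of the 9 in hippocampus.

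The description number as replicate block gave 641 genes in neocortex, 724 in cerebellum and 179 in hippocampus, where 1 of the 9 genes, Ifitm2, then passed (adjusted p = 0.0493). It also added Ifit3 in the average (0.0283) and lost Bst2 in neocortex (0.056), and it lost Herc6, Ifngr1, Rsad2 and Tlr7 in neocortex and Ube2l6 in hippocampus (0.0642 to 0.0939) and Rsad2 (0.0631) and Tlr7 (0.0626) in the average, while Gbp3 (0.0482) and Ifitm1 (0.0437) newly passed in hippocampus. The title number as block gave 205 genes for cerebellum minus neocortex and 40 for hippocampus minus cerebellum. Whether the numbers pair the samples is not settled by the labels: r of their deviations was -0.26 to 0.47 for description numbers (5 of 12 pairs over 0.1) and -0.10 to 0.63 for title numbers (16 of 24). A description number joins an LLC and a control library, so it cannot mark a shared animal. By title number, the LLC libraries had the same order of neutrophil sums in each region. Control replicate 17 had the highest interferon gamma list in each region. The mean of the 7 genes other than Ifitm2 and Ifitm3 did not repeat, being highest in LLC replicate 3 in cerebellum only. All 4 pairs of control cerebellum and control neocortex were over 0.1 (0.11 to 0.26), and there the block changed none of the 9 calls.

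Leaving out 1 number gave 187 (without LLC replicate 1) to 3834 (without LLC replicate 4) genes in neocortex, 6 (without control replicate 16) to 1570 (without LLC replicate 4) in cerebellum, 57 (without control replicate 15) to 1667 in hippocampus, 379 (without control replicate 15) to 4331 in the average, 4 (without control replicate 16) to 287 for cerebellum minus neocortex and 1 (without control replicate 15) to 220 for hippocampus minus cerebellum, these 4 highest without LLC replicate 4. Of the 9 genes 0 to 2 passed in cerebellum, 0 to 1 in hippocampus and 2 to 5 between control hippocampus and control neocortex.

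Sign changes with all libraries were Oasl2 (0.00, weights) and Irf7 (0.00, pseudocount 0.1) in hippocampus; Irf7 (0.08) and Bst2 (0.00) with weights in the average; Isg15 (0.05) and Ifit3 (0.29) with weights and Ifit3 (0.05) with median-ratio scaling for cerebellum minus neocortex; Ifit1 (-0.02, weights) and Ifitm2 (-0.01, median-ratio) for hippocampus minus cerebellum; Bst2 (0.04, weights) between control hippocampus and neocortex; and Ifitm2 (-0.17) and Ifitm3 (-0.03) with median-ratio scaling between control cerebellum and neocortex. With 1 number left out, ranges that span 0 were, in neocortex, Oasl2 -0.22 to 0.01 and Irf7 -0.17 to 0.04. In cerebellum they were Irf7 -0.18 to 0.21, Bst2 0.00 to 0.20 and Ifit3b -0.42 to 0.01. In hippocampus they were Oasl2 -0.07 to 0.10, Irf7 -0.08 to 0.10, Bst2 -0.21 to 0.10, Ifi27l2a -0.32 to 0.01 and Ifit1 -0.18 to 0.04, and in the average Irf7 -0.05 to 0.04. For cerebellum minus neocortex they were Isg15 -0.25 to 0.08, Irf7 -0.16 to 0.31, Ifit3 -0.29 to 0.23 and Ifit1 -0.33 to 0.31, and for hippocampus minus neocortex Irf7 -0.03 to 0.13 and Ifit3 -0.14 to 0.01. For hippocampus minus cerebellum they were Isg15 -0.08 to 0.39, Oasl2 -0.49 to 0.01, Ifitm2 -0.03 to 0.19, Ifitm3 -0.14 to 0.09, Irf7 -0.26 to 0.23, Bst2 -0.30 to 0.10, Ifi27l2a -0.14 to 0.52, Ifit3 -0.36 to 0.21 and Ifit1 -0.12 to 0.44. Between control hippocampus and neocortex they were Oasl2 -0.11 to 0.08, Bst2 -0.12 to 0.01 and Ifi27l2a -0.05 to 0.34.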

Other observations

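Within the Ifit cluster on chromosome 19 the copies differed in level: over the 24 libraries Ifit3 averaged 24.1 TPM, Ifit3b 11.2, Ifit2 8.52, Ifit1 3.5, Ifit1bl1 3.3 and Ifit1bl2 0.527 TPM. Ifi27, the neighbour of Ifi27l2a on chromosome 12, averaged 57.4 TPM, against 4.57 TPM for Ifi27l2a and 0.0545 TPM for Ifi27l2b. Of the oligoadenylate synthetase genes beside Oasl2 (3.45 TPM), Oas1c averaged 1.46, Oas1a 1.26 and Oasl1 0.271 TPM, and Oas1d, Oas1e, Oas1f and Oas1h stayed at or under 0.13 TPM in every library. Ifitm10, on chromosome 7, averaged 18.5 TPM, whereas Ifitm6 averaged 1.3 and Ifitm5 0.0621 TPM. Of these genes Ifitm6 rose in the average over regions (log2 fold change 1.19 ± 0.23, limma adjusted p = 0.0147).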
